A study of Mus musculus with 8 samples.

Results

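The endoplasmic reticulum (ER) is where secreted and membrane proteins enter the secretory route, fold and are checked, and the 40 genes described here encode the machinery for these steps together with the sensors of the unfolded protein response. They were taken from the deposited table by gene symbol and are 40 of its 48500 genes. RNA was measured in sorted leukaemia stem cells from the bone marrow of mice with acute myeloid leukaemia, in 4 Nynrin-KO libraries (KO1 to KO4, Nynrin-/-) and 4 WT libraries (WT1 to WT4, Nynrin+/+). Both groups carried a leukaemia driven by HOXA9 and MEIS1, and in both the sort kept cells with GFP and c-Kit and without the granulocyte marker Gr-1. The sources used here do not state mouse age, the allele design, the promoter of the drivers or whether each library is a separate mouse. The p-values therefore describe how these libraries vary, which may be technical.

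New polypeptides reach the ER through the Sec61 channel, helped by the translocon-associated protein complex encoded by Ssr1 to Ssr4, and signal peptidase, which includes the products of Spcs1 and Spcs2, removes their signal peptides. Inside, the Hsp70 chaperone BiP (Hspa5) and its co-chaperones, the Hsp90 protein GRP94 (Hsp90b1), the lectin chaperones calreticulin (Calr) and calnexin (Canx) and the protein disulphide isomerases fold them, while misfolded chains are sent back to the cytosol by ER-associated degradation. When unfolded proteins build up, the sensors IRE1 (Ern1), PERK (Eif2ak3) and ATF6 start the unfolded protein response. ATF6 and the spliced form of XBP1 then bind ER stress response elements in the promoters of many chaperone genes.

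These elements are shown because they are the known sites through which the unfolded protein response reaches its target promoters. The classical element, ERSE, was searched as CCAAT, any 9 bases and CCACG on both strands of the RefSeq promoter windows (GRCm38.p6, from 250 bases before to 50 bases after each start). It was found in 39 of 32851 windows (0.119%). Of the 40 genes, 33 had a window, and 8 of these held the element, namely Hspa5, Hsp90b1, Calr, Canx, Pdia6, Dnajc3, Creld2 and Syvn1. A second form, ERSE-II, searched as ATTGG, any base and CCACG, was in 0.0365% of all windows and in those of Herpud1 and Dnajb11, and the letters TGACGTGG, an XBP1 and ATF6 motif, were in 0.676% of all windows and in none of these 33 genes. A match is a description of letters and not a shown binding site. The 5 genes with an ERSE that fell in Nynrin-KO are given with the 250 bases before their start, 5′ to 3′ along the gene, with the fixed letters of the element in capitals (Hsp90b1 holds 2, one in each orientation, and Calr one in the reverse orientation).
Hspa5 (chr2:34771840-34772089, plus strand): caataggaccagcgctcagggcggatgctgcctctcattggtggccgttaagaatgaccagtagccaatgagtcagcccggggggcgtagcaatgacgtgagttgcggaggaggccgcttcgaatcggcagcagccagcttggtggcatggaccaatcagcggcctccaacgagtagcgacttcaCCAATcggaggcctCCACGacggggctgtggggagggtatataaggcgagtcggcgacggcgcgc
Hsp90b1 (chr10:86705445-86705694, minus strand): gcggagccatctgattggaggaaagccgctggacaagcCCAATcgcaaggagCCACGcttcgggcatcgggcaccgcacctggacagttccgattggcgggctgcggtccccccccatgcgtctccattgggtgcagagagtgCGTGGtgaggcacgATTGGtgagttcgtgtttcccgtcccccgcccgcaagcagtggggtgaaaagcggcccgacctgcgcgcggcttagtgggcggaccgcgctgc
Calr (chr8:84846932-84847181, minus strand): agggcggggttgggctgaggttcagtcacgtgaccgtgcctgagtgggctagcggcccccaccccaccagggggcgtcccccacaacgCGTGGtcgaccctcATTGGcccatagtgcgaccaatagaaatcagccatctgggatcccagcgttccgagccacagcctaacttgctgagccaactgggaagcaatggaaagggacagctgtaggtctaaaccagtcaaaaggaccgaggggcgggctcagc
Canx (chr11:50325674-50325923, minus strand): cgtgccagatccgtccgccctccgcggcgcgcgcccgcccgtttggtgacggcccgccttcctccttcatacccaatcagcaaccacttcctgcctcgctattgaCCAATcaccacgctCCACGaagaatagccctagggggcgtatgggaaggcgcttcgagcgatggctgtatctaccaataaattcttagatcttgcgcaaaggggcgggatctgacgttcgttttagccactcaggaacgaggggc
Pdia6 (chr12:17266339-17266588, plus strand): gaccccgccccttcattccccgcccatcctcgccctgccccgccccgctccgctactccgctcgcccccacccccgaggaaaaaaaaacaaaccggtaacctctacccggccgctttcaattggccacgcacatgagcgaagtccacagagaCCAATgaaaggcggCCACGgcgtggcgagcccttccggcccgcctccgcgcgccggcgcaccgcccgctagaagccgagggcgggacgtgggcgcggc
The elements of 4 genes that did not pass the test are given with 12 bases on either side, and again the capitals mark the fixed letters (ERSE in Dnajc3, Creld2 and Syvn1, reversed in Creld2, and ERSE-II in Herpud1). The ERSE-II of Dnajb11 lies after the start and is not shown.
Dnajc3 (chr14:118937815-118937857, plus strand): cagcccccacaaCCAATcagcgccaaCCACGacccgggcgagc
Creld2 (chr15:88819508-88819550, plus strand): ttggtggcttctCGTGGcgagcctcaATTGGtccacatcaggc
Syvn1 (chr19:6046520-6046562, plus strand): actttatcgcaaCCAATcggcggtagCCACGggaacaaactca
Herpud1 (chr8:94386365-94386399, plus strand): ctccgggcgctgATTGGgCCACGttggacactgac

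The values are FPKM, read counts scaled to transcript length and to the size of the library, and a change is the difference of log2(FPKM + 1), Nynrin-KO minus WT, tested across all genes with limma at an adjusted p under 0.05. Depth recovered from the values ran from about 1827000 to 28701000 reads in Nynrin-KO and from 1963000 to 33087000 reads in WT. Nynrin itself was at most 0.437 FPKM in Nynrin-KO and at most 0.286 FPKM in WT, so it does not check the labels. Xist was at most 0.366 FPKM in KO2 to KO4 and 12.7 FPKM in KO1, against 15.2 to 26.5 FPKM in WT. Ddx3y, on the Y chromosome, was 18.2 to 20.7 FPKM in KO2 to KO4 and 2.18 FPKM in KO1, against at most 0.111 FPKM in WT, and the effects of sex and of genotype cannot be told apart here. Of 8 markers of leukaemia stem and progenitor cells none was at 0 in all libraries, 2 rose and 3 fell, and their summed level was 36.3 to 60.8 FPKM in Nynrin-KO and 94.5 to 246 FPKM in WT. Of the sort markers, Kit overlapped between the groups. Ly6g, whose protein carries the Gr-1 epitope that the sort excluded, was 93.5 to 264 FPKM in Nynrin-KO and 0.707 to 49.3 FPKM in WT, and it rose (log2 change 3.23, adjusted p = 0.0381). Cd34, one of the 8 stem and progenitor markers, was 5.54 to 7.30 FPKM in Nynrin-KO and 55.7 to 151 FPKM in WT. It was the largest part of their summed level in every WT library, so the difference in that sum rests largely on Cd34. The summed level of 13 mature neutrophil markers was 125000 to 284000 FPKM in Nynrin-KO and 3000 to 105000 FPKM in WT, and 8 of them rose. WT1 stood apart, at 3000 FPKM of these markers beside 55500 to 105000 FPKM in WT2 to WT4, and at the highest level of the stem and progenitor markers, 246 FPKM. The predicted gene Gm10800, which took up a large part of some libraries, was under 10000 FPKM in KO2, KO4 and WT1. It was above that level in the other 5 libraries, KO1, KO3 and WT2 to WT4.

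Most of the lectin, isomerase and translocation genes fell in Nynrin-KO, 3 of the 9 lumenal chaperone genes fell, and no ER-associated degradation gene passed the test. All 40 genes stood at 1 FPKM or more in every library, so none passed the filter on low values through 1 group alone. Of the 40, 21 fell, 1 rose and 18 were not past the threshold, where 13.8% of the 12524 genes tested fell, 14.0% rose and 27.9% did either. The median log2 change of the 40 genes was -0.79, beside -0.03 over all genes tested. Genes of like level lay lower than the whole table. Over genes with a mean between 11.7 and 107.5 FPKM, the middle range of the 40, the median was -0.24 and 27.0% fell, and over genes at 100 FPKM or more the median was -0.69. The groups did not overlap, with Nynrin-KO lower, for 20 of the 40 genes (15.0% of all genes tested), and with Nynrin-KO higher for 4 (16.7% of all genes tested). WT1 was the WT library lowest in neutrophil markers, and KO1 the Nynrin-KO library highest in them, at 284000 FPKM. With WT1 and KO1 left out 12 of the 40 genes fell, where 7.31% of all genes tested did, and the median of the 40 was -0.64. Within the 5 libraries high in Gm10800 12 fell, where 3.04% of all genes tested did, and the median of the 40 was -0.91. With the mean level of the mature neutrophil markers as a covariate, limma called 0 of the 40, with 17 at an unadjusted p under 0.05, and that fit called 8 genes in the whole table. The median log2 change of the 40 in that fit was -0.53, with 28 of them negative, and Calr was at -2.24. The summed level of these markers did not overlap between the groups, and their part in the result was not tested. In bulk libraries such as these, fewer cells of a type and less RNA per cell cannot be told apart.

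**Figure D1:**
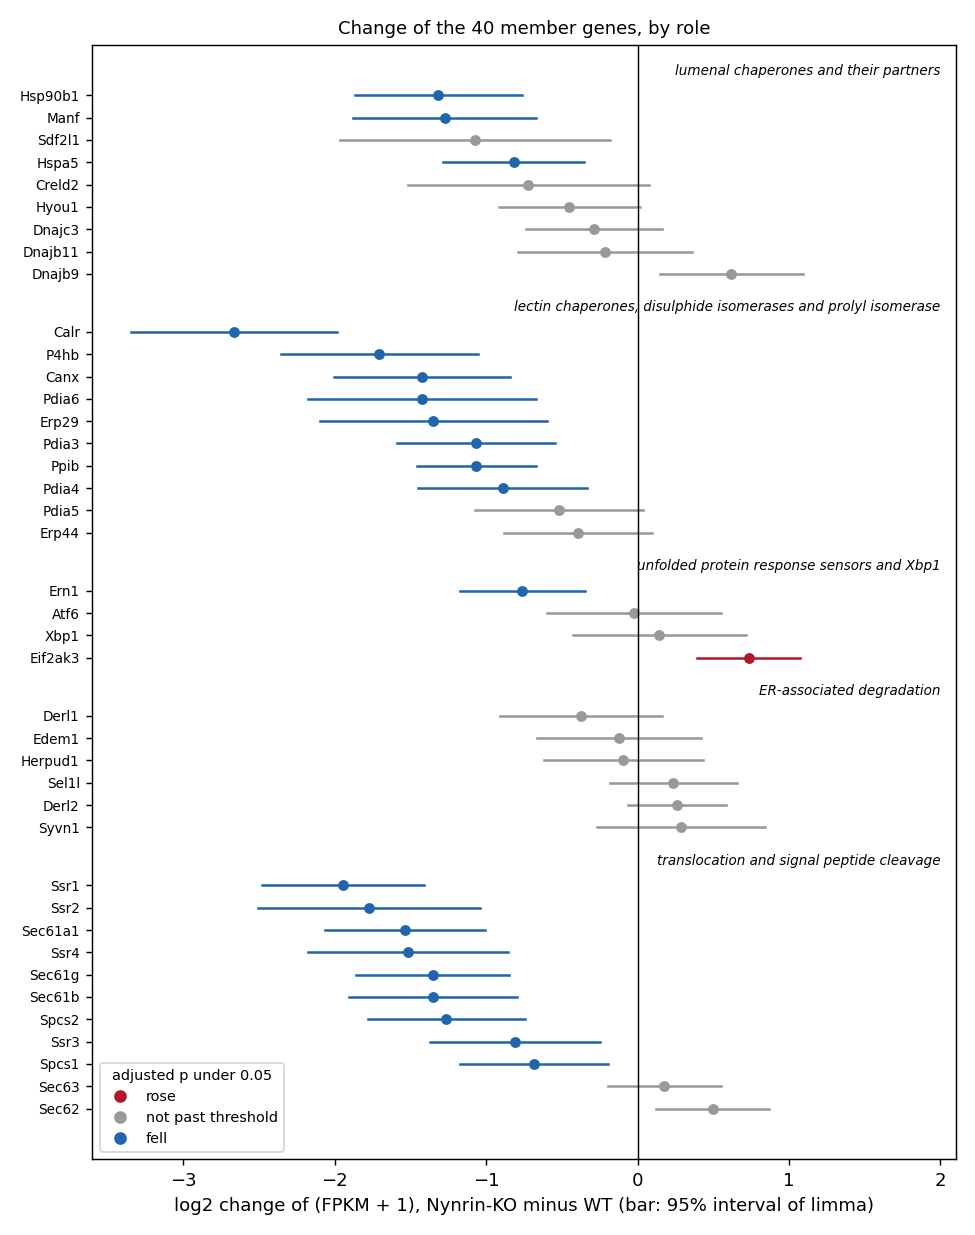
Log2 change of (FPKM + 1), Nynrin-KO minus WT, on the x axis for each of the 40 genes, grouped by role, where points are limma estimates, bars their 95% intervals and colours the call at an adjusted p under 0.05. The genes of the isomerase and translocation groups lie mostly left of 0, from -2.67 for Calr to 0.50 for Sec62, and the 6 degradation genes lie on both sides of 0.

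Over all 40 genes the summed level was 2232, 2548, 1975 and 3421 FPKM in KO1 to KO4, against 7973, 6446, 4942 and 5554 FPKM in WT1 to WT4. The lowest WT library, WT3, stood above the highest Nynrin-KO library, KO4. WT3 and KO3, the lowest library of each group, were also the shallowest, and WT1 and KO4, the highest, were the deepest of their groups. No test was made on these sums.

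Among the lumenal chaperones 3 of 9 genes fell and none rose. Hspa5 (ENSMUSG00000026864, mm10 chr2:34771970-34777547), the BiP gene, was 504.4, 529.2, 509.5 and 752.8 FPKM in KO1 to KO4, against 1098, 1072, 823.9 and 1024 FPKM in WT1 to WT4. KO4 was the highest Nynrin-KO library and WT3 the lowest WT library, and the groups did not overlap. Hspa5 averaged 574 ± 120 FPKM in Nynrin-KO and 1004 ± 124 FPKM in WT (SD, n = 4 each). The log2 change was -0.82 (SE 0.21, adjusted p = 0.0182). Its size depends on the scaling, since quantile normalization gave -0.17 (adjusted p = 0.488), and the call was also lost without KO1, KO2 or WT2 (adjusted p = 0.0554, 0.0558 and 0.0606). In the role as a whole 1 of the 9 genes fell when WT1 and KO1 were left out, and 2 within the 5 libraries high in Gm10800. Of all genes tested 7.31% fell in the first of these fits and 3.04% in the second.

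Hsp90b1, the gene of the ER Hsp90 protein that folds integrins and Toll-like receptors, was 80.3, 105.5, 82.6 and 151 FPKM in KO1 to KO4, against 313, 259, 218 and 235 FPKM in WT1 to WT4. Every Nynrin-KO library lay below every WT library, and the log2 change was -1.32 (SE 0.25, adjusted p = 0.00562). Manf, which encodes a small stress-induced protein that binds BiP, was 16.2, 23.9, 17.1 and 34.8 FPKM in Nynrin-KO, against 65.9, 62.1, 44.2 and 48.7 FPKM in WT. The log2 change of Manf was -1.27 (adjusted p = 0.00906). Manf lies within a region shared with Dcaf1 on the other strand, at up to 5.43 FPKM, and with Rbm15b on the same strand, at up to 2.49 FPKM, and Hsp90b1 overlaps a pseudogene, 1810014B01Rik, on the other strand, at up to 5.77 FPKM. The sources used here do not state how shared reads were counted.

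The other 6 lumenal genes did not pass. Sdf2l1, which encodes a partner of the Dnajb11 co-chaperone, averaged 35.8 ± 16.1 FPKM in Nynrin-KO and 73.2 ± 25.6 FPKM in WT (adjusted p = 0.0728), and KO3 held as few as 32 reads of it. Creld2, Hyou1, Dnajc3 and Dnajb11 had log2 changes of -0.72, -0.45, -0.29 and -0.22, with groups that overlapped. Hyou1 encodes a nucleotide exchange factor of BiP, and Dnajc3 and Dnajb11 encode J-domain co-chaperones. Dnajb9, whose J-domain product brings BiP to IRE1, lay the other way, at 68.8, 78.9, 56.9 and 67.7 FPKM in KO1 to KO4, against 32.7, 40.7, 50.5 and 53.9 FPKM in WT1 to WT4. The groups of Dnajb9 did not overlap, and its log2 change of 0.62 just missed the threshold (adjusted p = 0.0551). It was past the threshold in 5 of 22 alternative settings.

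The lectin chaperones and isomerases include Calr, whose log2 change was the lowest of the 40 genes. Here 8 of 10 genes fell and 0 rose, and the median log2 change was -1.21. Calr (ENSMUSG00000003814, mm10 chr8:84841850-84846934), the gene of the lumenal lectin calreticulin, was 216.6, 249.2, 153.9 and 342.8 FPKM in KO1 to KO4, against 2112, 1644, 1085 and 1252 FPKM in WT1 to WT4. KO4 was the highest Nynrin-KO library and WT3 the lowest WT library, and the groups did not overlap. Calr averaged 241 ± 79 FPKM in Nynrin-KO and 1523 ± 457 FPKM in WT. The log2 change was -2.67 (SE 0.30, adjusted p = 0.00146), or 6.35-fold lower on the same scale. Over the 22 alternatives the Calr change ran from -2.86 to -2.17, and its call was lost only with the neutrophil covariate (adjusted p = 0.0729). The processed pseudogene Calr-ps, which could take reads from Calr, was at most 0.218 FPKM in Nynrin-KO and 4.202 FPKM in WT.

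Canx, the membrane-bound relative of Calr, also fell, with 90.8 ± 23.7 FPKM in Nynrin-KO and 246 ± 63 FPKM in WT (log2 change -1.42, adjusted p = 0.00498). The ratio of Calr to Canx is not changed by a factor applied to a whole library. It was 2.80, 2.93, 2.047 and 2.73 in KO1 to KO4, against 6.74, 5.84, 6.30 and 5.72 in WT1 to WT4. This ratio was lower in every Nynrin-KO library, so the 2 lectin genes changed unequally, and no test was made on it. The order of levels between Calr and Hspa5 also differed between the groups. Hspa5 stood above Calr in each Nynrin-KO library, and Calr stood above Hspa5 in each WT library.

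P4hb, which encodes the founding protein disulphide isomerase, was 175.5, 158.3, 134.7 and 273.7 FPKM in KO1 to KO4, against 857.9, 608.8, 438.1 and 514.1 FPKM in WT1 to WT4. WT1 was the highest and WT3 the lowest WT library, still above KO4, and the log2 change was -1.71 (SE 0.29, adjusted p = 0.00397). Ppib, the gene of the ER prolyl isomerase cyclophilin B, was 6.77, 8.32, 6.96 and 7.29 FPKM in Nynrin-KO, against 21.31, 16.29, 14.96 and 13.81 FPKM in WT. The Nynrin-KO libraries of Ppib lay close together, and the log2 change was -1.06 (SE 0.17, adjusted p = 0.00341). Ppib overlaps Snx22 on the other strand, which was at most 1.29 FPKM.

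Of the other isomerase genes, Pdia6 fell to 86.1 ± 37.3 FPKM in Nynrin-KO, against 222 ± 63 FPKM in WT, and Pdia3, the partner of the lectin chaperones, fell to 275 ± 81 FPKM in Nynrin-KO, against 565 ± 76 FPKM in WT. Pdia3 was no longer past the threshold under quantile normalization (log2 change -0.42, adjusted p = 0.0938). Erp29, a thioredoxin-fold escort protein gene without a redox active site, and Pdia4 fell with log2 changes of -1.35 and -0.89. Erp29 overlaps Naa25 on the other strand, which was at most 7.92 FPKM. Erp29 lost its call in 8 of the 22 alternatives, among them without KO1 (adjusted p = 0.051) and without WT3 and KO3 (adjusted p = 0.0609). Pdia4 lost its call in 10, among them without KO1, KO2, WT1, WT2 or WT4 (adjusted p from 0.0551 to 0.0727). Erp44, which retains proteins in the early secretory route, and Pdia5 had log2 changes of -0.40 and -0.52 and did not pass (adjusted p = 0.203 and 0.149). Leaving out WT1 and KO1 gave 4 falls among the 10 genes, and the 5 libraries high in Gm10800 gave 6.

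Translocation genes fell about as widely. Of 11 genes 9 fell and 0 rose, and their median log2 change was -1.35. Ssr1 (ENSMUSG00000021427, mm10 chr13:37966605-37994217), which encodes the alpha subunit of the translocon-associated protein complex, was 26.0, 24.7, 21.6 and 35.3 FPKM in KO1 to KO4, against 120.6, 100.3, 132.2 and 75.3 FPKM in WT1 to WT4. WT4 was the lowest WT library and still stood above KO4, and the log2 change was -1.95 (SE 0.24, adjusted p = 0.00157). Sec61a1 (ENSMUSG00000030082, mm10 chr6:88503579-88518905), the gene of the channel-forming subunit, was 24.5, 28.2, 20.9 and 38.3 FPKM in Nynrin-KO, against 107.2, 80.0, 71.8 and 70.6 FPKM in WT. The log2 change of Sec61a1 was -1.54 (SE 0.23, adjusted p = 0.00279), and the groups did not overlap.

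Sec61g, the gene of the small gamma subunit, was 20.5, 20.7, 21.5 and 23.8 FPKM in KO1 to KO4, against 77.9, 67.2, 42.7 and 45.9 FPKM in WT1 to WT4. Its log2 change of -1.35 (adjusted p = 0.00358) was close to the -1.35 of Sec61b, which encodes the beta subunit and averaged 101 ± 12 FPKM in Nynrin-KO and 268 ± 82 FPKM in WT. The 3 channel subunits thus had changes between -1.54 and -1.35. Both small subunits lost their call within the 5 libraries high in Gm10800, a smaller set (adjusted p = 0.0585 for Sec61b and 0.0587 for Sec61g). Their log2 changes there were -1.32 for Sec61b and -1.24 for Sec61g.

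The other translocon-associated genes Ssr2, Ssr4 and Ssr3 fell with log2 changes of -1.77, -1.52 and -0.81. Ssr4 lies on the X chromosome, and the effects of sex and of genotype cannot be told apart here. For Ssr3 the groups overlapped, since KO4, at 75.2 FPKM, stood above WT3, at 72.6 FPKM. Of the signal peptidase genes, Spcs2 averaged 63.8 ± 13.2 FPKM in Nynrin-KO and 155 ± 35 FPKM in WT (log2 change -1.26, adjusted p = 0.00512), and Spcs1 had a log2 change of -0.68 (adjusted p = 0.0436). The calls of Ssr3 and Spcs1 were each lost when any 1 of KO1, KO2, KO3, WT1, WT2 and WT4 was left out (adjusted p from 0.0681 to 0.111). The pseudogene Spcs2-ps was at most 4.197 FPKM in Nynrin-KO and 10.15 FPKM in WT. With WT1 and KO1 left out 7 of the 11 genes fell, and 4 did within the 5 libraries high in Gm10800.

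Sec62 and Sec63, whose products help the channel with proteins that arrive after translation and recruit BiP, were not past the threshold. Sec62 was 8.43, 11.02, 8.56 and 11.73 FPKM in KO1 to KO4, against 7.59, 5.88, 6.55 and 6.8 FPKM in WT1 to WT4, with groups that did not overlap (log2 change 0.50, adjusted p = 0.0515). Sec63 averaged 2.30 ± 0.33 FPKM in Nynrin-KO and 1.92 ± 0.22 FPKM in WT (log2 change 0.18, 95% interval -0.20 to 0.55). The ratio of Sec61a1 to Sec63 was 9.95 to 14.3 in Nynrin-KO and 35.4 to 51.7 in WT. Sec61a1 fell without overlap and Sec63 did not pass, so this ratio mostly repeats the fall of Sec61a1.

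**Figure D2:**
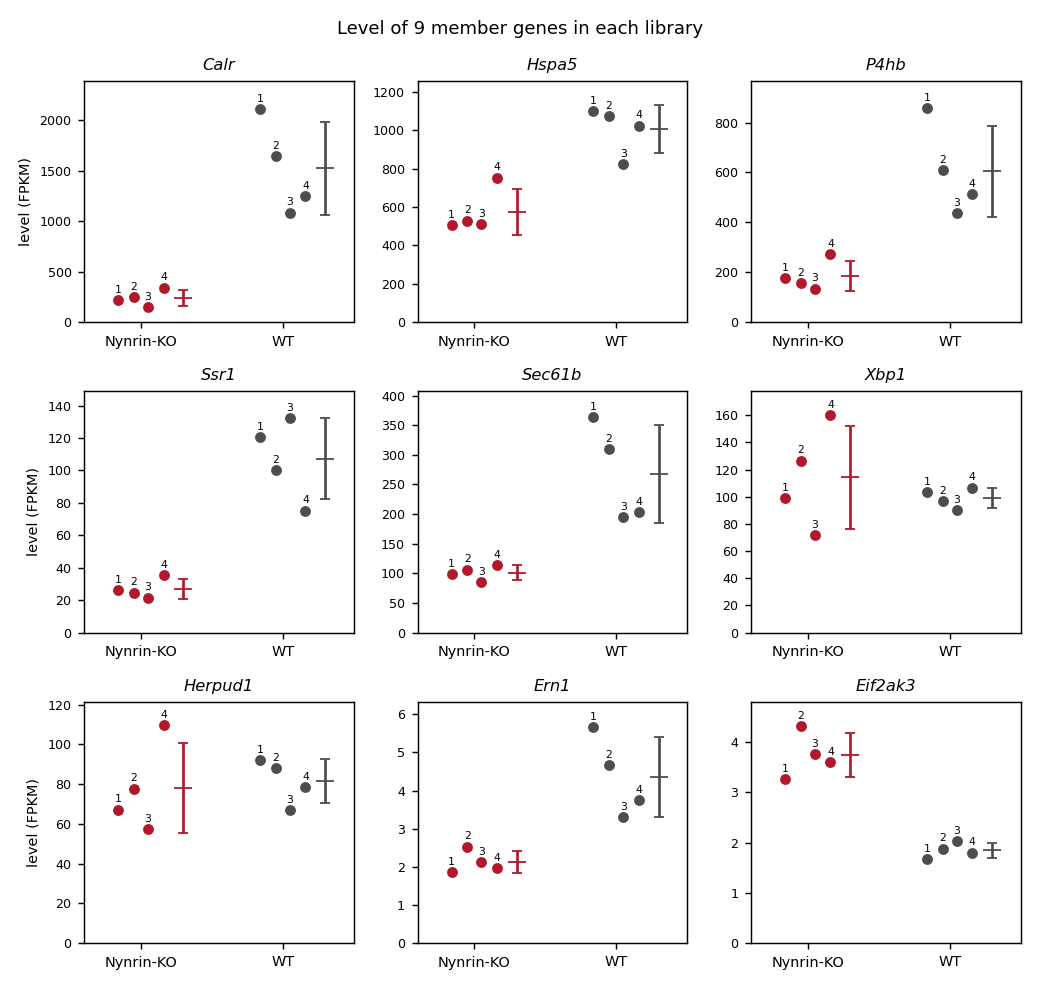
Level in FPKM, on a y axis from 0, of 9 genes in each of the 4 Nynrin-KO and 4 WT libraries, with the replicate number above each point and the mean and SD beside it. Calr, Hspa5, P4hb, Ssr1, Sec61b and Ern1 were lower in every Nynrin-KO library, Eif2ak3 was higher in every one, and the groups of Xbp1 and Herpud1 overlapped.

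The sensors of the unfolded protein response did not move as one group. Of Ern1, Eif2ak3, Atf6 and the IRE1 target Xbp1, 1 gene fell, 1 rose and the other 2 were not past the threshold. Among all genes tested 13.8% fell and 14.0% rose, and counts over 4 genes say little about the sensors as a group. Eif2ak3 (ENSMUSG00000031668, mm10 chr6:70844515-70905245), the gene of the translation-inhibiting kinase PERK, was 3.27, 4.32, 3.76 and 3.61 FPKM in KO1 to KO4, against 1.67, 1.88, 2.03 and 1.80 FPKM in WT1 to WT4. Every Nynrin-KO library stood above every WT library, and its log2 change of 0.73 (SE 0.15, adjusted p = 0.00857) was the single rise past the threshold among the 40 genes. Ern1 (ENSMUSG00000020715, mm10 chr11:106394650-106487852), the gene of the RNA-cleaving sensor IRE1, was 1.85, 2.53, 2.13 and 1.97 FPKM in Nynrin-KO, against 5.67, 4.66, 3.30 and 3.76 FPKM in WT. Every Nynrin-KO library of Ern1 lay below every WT library (log2 change -0.76, SE 0.18, adjusted p = 0.0155).

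The ratio of Eif2ak3 to Ern1 within a library was 1.77, 1.71, 1.77 and 1.83 in KO1 to KO4, against 0.295, 0.403, 0.616 and 0.479 in WT1 to WT4. A factor applied to a whole library does not change this ratio. Since the groups of both genes did not overlap, in opposite directions, the ratio had to separate them and adds no further support. Both genes were low, with as few as 18 reads of Eif2ak3 in WT3 and 27 of Ern1 in KO3. The call of Ern1 was lost without WT1 (adjusted p = 0.0516). Within the 5 libraries high in Gm10800 neither gene was past the threshold (adjusted p = 0.236 for Eif2ak3 and 0.196 for Ern1). Their log2 changes there were 0.64 for Eif2ak3 and -0.71 for Ern1. Eif2ak3 still rose when WT1 and KO1 were left out, and Ern1 was then not past the threshold (adjusted p = 0.106).

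Atf6 was 3.92, 7.17, 7.33 and 6.83 FPKM in KO1 to KO4, against 9.32, 5.56, 4.29 and 6.78 FPKM in WT1 to WT4, and the groups overlapped throughout. Its log2 change was -0.02, with a 95% interval from -0.59 to 0.55. Xbp1 was 98.9, 126.6, 71.7 and 160.1 FPKM in Nynrin-KO, against 103.4, 96.8, 90.2 and 106.8 FPKM in WT, with a wider spread among the Nynrin-KO libraries. The log2 change of Xbp1 was 0.14, with a 95% interval from -0.43 to 0.71. Xbp1 was past the threshold as a rise only under quantile normalization (log2 change 0.60, adjusted p = 0.0315), and its estimate was -0.21 within the 5 libraries high in Gm10800. The table gives 1 value for the whole gene, so the spliced form that IRE1 makes was not measured.

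None of the 6 ER-associated degradation genes passed the threshold, and none had an unadjusted p under 0.05 in limma. Limma's voom on the recovered reads also called 0 of them, with 1 at an unadjusted p under 0.05. Herpud1, a scaffold gene of the degradation complex and a known target of the unfolded protein response, named here after its values were seen, was 67.2, 77.7, 57.5 and 109.9 FPKM in KO1 to KO4, against 92.3, 88.0, 67.1 and 78.7 FPKM in WT1 to WT4. KO4 was the highest and KO3 the lowest of the 8 libraries, and the log2 change of Herpud1 was -0.09 (95% interval -0.62 to 0.43). The ubiquitin ligase gene Syvn1 and its partner Sel1l had log2 changes of 0.29 and 0.24. The mannosidase-like gene Edem1 had -0.12, and the membrane genes Derl1 and Derl2 had -0.37 and 0.26. The intervals of these 6 genes reached from -0.91 for Derl1 to 0.84 for Syvn1. Syvn1 and Derl2 each overlap a gene on the other strand, Mrpl49 at up to 19.2 FPKM and Mis12 at up to 17.6 FPKM.

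**Figure D3:**
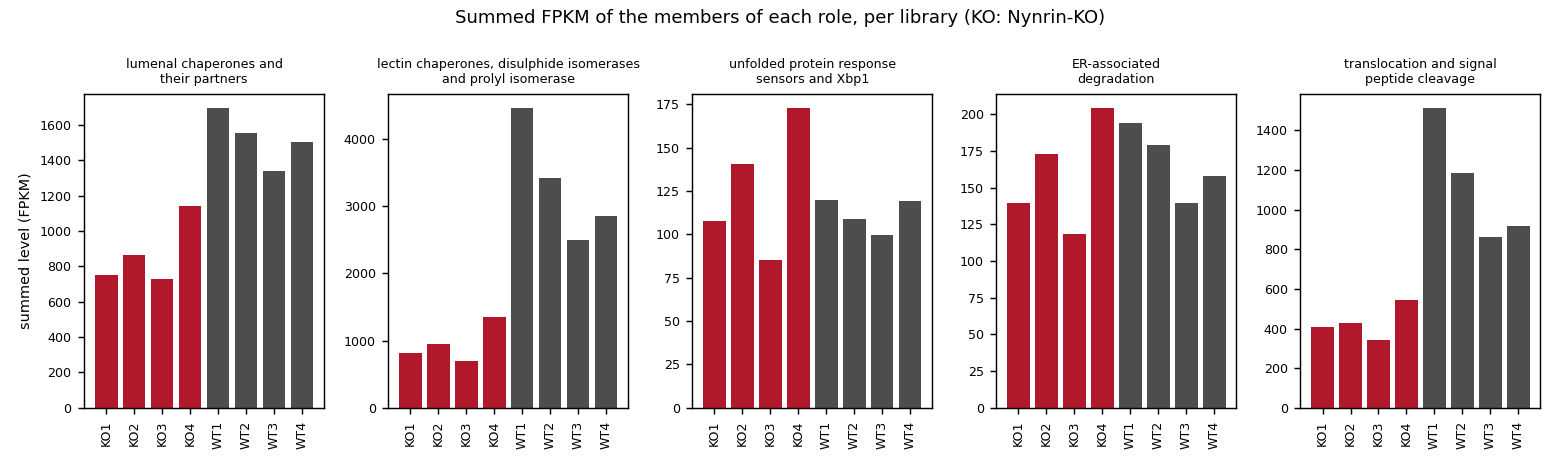
Summed FPKM of the genes of each role, on separate y axes from 0, in KO1 to KO4 and WT1 to WT4. In the isomerase panel the Nynrin-KO libraries reach at most 1358 FPKM and the WT libraries at least 2499 FPKM, in the translocation panel at most 542 and at least 863 FPKM, and in the degradation panel the groups overlap.

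The summed levels also differed between roles, though each sum mainly follows its highest genes. In every library Hspa5 was the largest part of the lumenal sum, Xbp1 of the sensor sum and Herpud1 of the degradation sum. Calr was the largest part of the isomerase and lectin sum in every WT library. The isomerase and lectin genes summed to 955 ± 287 FPKM in Nynrin-KO and 3308 ± 854 FPKM in WT (SD, n = 4 each). The translocation genes summed to 430 ± 83 FPKM in Nynrin-KO and 1119 ± 297 FPKM in WT, and the lumenal chaperones to 873 ± 190 FPKM in Nynrin-KO and 1523 ± 146 FPKM in WT. The degradation genes summed to 159 ± 38 FPKM in Nynrin-KO and 168 ± 24 FPKM in WT, and the sensors with Xbp1 to 126.5 ± 38.3 FPKM in Nynrin-KO and 112 ± 10 FPKM in WT. The difference in change between roles was not tested.

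Genes with the promoter element stood on both sides of the threshold. Of the 8 genes with an exact match to the ERSE 5 fell, beside 21 of all 40 genes. Hspa5, Hsp90b1, Calr, Canx and Pdia6 fell, with log2 changes from -2.67 to -0.82, and Dnajc3, Creld2 and Syvn1 did not pass, with log2 changes of -0.29, -0.72 and 0.29. Herpud1 and Dnajb11, with ERSE-II, did not pass either. None of the 9 translocation genes that fell was among the genes with either element, although Sec61a1 and Ssr2 had no window in the table.

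Level and change went together among the 40 genes, as they did in the whole table. Spearman's rho between the mean level and the log2 change was -0.647 over the 40 genes, which share the same libraries, so no p is given. Of 11 genes with a mean of 100 FPKM or more 10 fell, the exception being Xbp1, where 44.7% of all genes tested at that level fell. Of 13 genes between 30 and 100 FPKM 9 fell, where 37.8% of all genes did. Below 10 FPKM 1 of 8 fell, namely Ern1, and from 10 to 30 FPKM 1 of 8, namely Ppib, where 8.24% and 19.8% of all genes did. The degradation genes and sensors, apart from Xbp1 and Herpud1, had means under 40 FPKM.

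**Figure D4:**
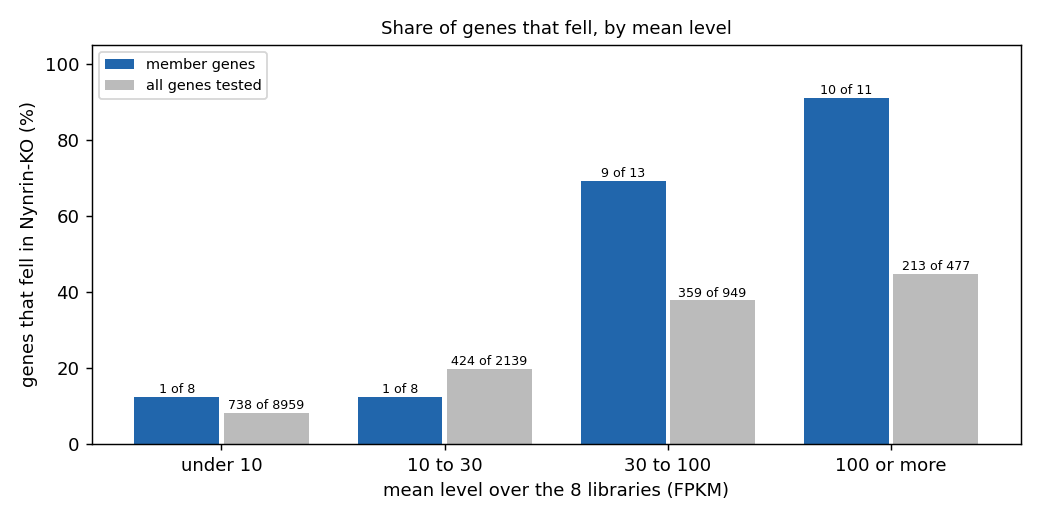
Percentage of genes that fell in Nynrin-KO (y axis, from 0) by mean level over the 8 libraries (x axis, FPKM), for the 40 genes (blue) and all genes tested (grey), with the counts above the bars. The share among the 40 genes is 90.9% at 100 FPKM or more and 12.5% below 10 FPKM, and the share among all genes tested also increases with level, from 8.24% to 44.7%.

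Other genes of the pathway were read from 6 further lists, of which 118 of 128 genes were tested. Of these 33 fell and 4 rose, again beside 13.8% and 14.0% of all genes tested, with a median log2 change of -0.40. Leaving out WT1 and KO1 gave 13 falls, where 7.31% of all genes tested fell. The 5 libraries high in Gm10800 also gave 13 falls, where 3.04% of all genes tested did.

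The N-glycan list, whose proteins attach and trim the sugars that Calr and Canx read, had the highest share of genes that fell among the 6 lists. Of 16 tested genes 11 fell and 0 rose, and the median log2 change was -0.93. Ddost, a subunit gene of the oligosaccharyltransferase, averaged 114 ± 37 FPKM in Nynrin-KO and 460.2 ± 147.8 FPKM in WT (log2 change -2.02, adjusted p = 0.0028). Rpn1, another subunit gene, averaged 26.1 ± 8.8 FPKM in Nynrin-KO and 102 ± 35 FPKM in WT (log2 change -1.94), and the first trimming glucosidase gene Mogs had a log2 change of -1.01. With WT1 and KO1 left out 7 of the 16 fell, and 5 did within the 5 libraries high in Gm10800.

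In the list of signal recognition and membrane insertion genes 6 of 20 fell and none rose, beside 13.8% and 14.0% of all genes tested. The signal peptidase subunit gene Spcs3 averaged 54.3 ± 13.7 FPKM in Nynrin-KO and 154.7 ± 41.9 FPKM in WT (log2 change -1.49), and Tram1, which aids translocation, and Srp68, of the signal recognition particle, had -1.08 and -0.82. With WT1 and KO1 left out 1 of the 20 fell, where 7.31% of all genes tested did. Within the 5 libraries high in Gm10800 2 fell, where 3.04% of all genes tested did. Of 26 other folding factor genes 6 fell and 1 rose. The reductase gene Dnajc10 averaged 17.2 ± 1.7 FPKM in Nynrin-KO and 68.3 ± 18.1 FPKM in WT (log2 change -1.90, adjusted p = 0.0015). The isomerase gene Txndc5 and the ER peroxiredoxin gene Prdx4 had -1.95 and -1.64, and Prdx4, like Ssr4, lies on the X chromosome. The rise was of the selenoprotein gene Selenok, at 59.3 ± 4.1 FPKM in Nynrin-KO and 36.9 ± 6.7 FPKM in WT. When WT1 and KO1 were left out 3 of these genes fell and 0 rose, and within the 5 libraries 2 fell and 0 rose.

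Of 21 other degradation genes 2 fell and none rose, where 13.8% of all genes tested fell and 14.0% rose. The 2 were Vcp, the ATPase gene that extracts proteins from the membrane (log2 change -1.34), and Edem2 (-1.14). The median of the list was 0.10. Of 19 genes of transport from the ER 6 fell and none rose, among them the cargo receptor genes Tmed2 and Lman1 (-1.49 and -0.93) and the coat gene Sec24d (-0.81). Leaving out WT1 and KO1 gave 0 falls among the degradation genes and 1 among the transport genes, and the 5 libraries gave 1 and 2. Of all genes tested 7.31% fell in the first of these fits and 3.04% in the second. Of 16 other regulators 2 fell and 3 rose, counts near the shares over all genes tested (13.8% fell and 14.0% rose). Eif2s1, which encodes the translation factor that PERK phosphorylates, averaged 22.1 ± 3.5 FPKM in Nynrin-KO and 61.9 ± 18.3 FPKM in WT (log2 change -1.41, adjusted p = 0.00355), and Rtcb, the ligase gene that joins Xbp1 exons after IRE1 cleavage, had -1.09. The rises were of Bcl2l11, a BH3-only gene (0.70), Ppp1r15b, which encodes a cofactor that reverses the mark set by PERK (0.88), and Nfe2l2, an antioxidant regulator gene (0.82). Leaving out WT1 and KO1, 1 of these regulators fell and 0 rose, the same counts as within the 5 libraries. Ddit3, which encodes the factor CHOP downstream of PERK, and Atf4, both named after their values were seen, had log2 changes of 0.69 and -0.30 and did not pass (adjusted p = 0.0584 and 0.365).

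Markers of cells with a large ER were also read, since plasma cells express many of these genes. Of 11 plasma and B cell markers 6 were tested and 2 rose, and their summed level was 222 to 502 FPKM in Nynrin-KO and 163 to 280 FPKM in WT. The immunoglobulin gene Igkc, the largest part of this sum in KO1, was 36.8 to 321 FPKM in Nynrin-KO and 0 to 53.9 FPKM in WT, and Mzb1, which encodes a plasma cell ER protein, was at most 0.154 FPKM in Nynrin-KO and 2.41 FPKM in WT. Among macrophage markers 7 of 8 rose, with summed levels of 252 to 710 FPKM in Nynrin-KO and 46.9 to 73.6 FPKM in WT. The promyelocyte markers, 5 granule protein and membrane genes of cells that make much secretory protein, summed to 2260 to 5700 FPKM in Nynrin-KO and 4730 to 8100 FPKM in WT, with 3 that fell and 1 that rose. Mast cell and basophil markers summed to 47.3 to 110 FPKM in Nynrin-KO and 4.18 to 10.4 FPKM in WT, and erythroid markers to 8.78 to 47.7 FPKM in Nynrin-KO and 0.202 to 2.07 FPKM in WT. The part of these cells in the changes of the 40 genes was not tested.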

How the data were processed

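Each library was made from about 10000 sorted cells by the Smart-Seq V4 method for low RNA input, per the labels' protocols. The authors deposited 1 table of 48500 genes with 8 columns, whose header names no unit. It was read as FPKM, because each deposited value times the longest GENCODE M21 transcript length summed to nearly the same total in all columns, and dividing by 1 step per library gave whole reads for 99.41% to 99.53% of low values (tolerance 0.1 read). Identifiers matched GENCODE M21 (mm10) for 99.62% of genes. The build mm10 and the tools Bowtie 0.12.9, Cufflinks 2.1.1 and HTSeq are named in the submitters' processing notes without a role. The sources used here state neither strand use nor how shared reads were counted. At the lowest depth, 3 reads of a 1 kb transcript give 1.64 FPKM, which covers counting error only.

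Genes reaching 1 FPKM in as many libraries as the smaller group holds (4 of 8 libraries here) entered limma 3.58.1 (R 4.3.3) as log2(FPKM + 1), with genotype alone in the model, trended and robust variances, two-sided p-values and Benjamini-Hochberg adjustment over all genes tested at 0.05. Fold changes on this scale understate changes of low genes. Alternatives covered the pseudocount, filter, scaling, variance options, weights, replicate block, libraries left out, a covariate, voom on recovered reads and the threshold. Tables and plots used Python 3.11.15, pandas 2.3.3, numpy 2.4.6 and matplotlib 3.10.9. The 40 genes and all lists were chosen with earlier results of these data known. Values per library are given for up to 3 called genes per role with the smallest p, the sensors, Xbp1 and Hspa5. Of each other list up to 3 called genes with the smallest p are named. Dnajb9, Sec62, Herpud1, Sec61b (plotted), Selenok, Ppp1r15b, Nfe2l2, Ddit3 and Atf4 fall outside this rule and were chosen after their values were seen.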

Additional observations from a re-analysis of the deposited data

Results flagged for a closer look

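In the 80 groups of 4 libraries formed by the 40 genes, 3 held a library far from the other values of its group, where chance flags about 1 group in 20. Hspa5 was 752.8 FPKM in KO4, while KO1 to KO3 lay between 504.4 and 529.2 FPKM. Atf6 was 3.916 FPKM in KO1, while KO2 to KO4 lay between 6.833 and 7.327 FPKM. Syvn1 was 2.373 FPKM in WT3, one of the shallowest libraries, while WT1, WT2 and WT4 lay between 3.427 and 3.533 FPKM.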

How the results depend on the processing

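Of the 40 genes, 21 fell and 1 rose, and leaving out 1 library at a time gave 16 to 21 falls and 1 to 3 rises. The other pathway genes gave 33 falls and 4 rises, and 21 to 39 falls and 1 to 9 rises with 1 library left out. Without WT1 and KO1, the counts were 12 falls among the 40 genes, and 13 falls and 1 rise among the other pathway genes. In that fit 7.31% of all genes tested fell. Without WT3 and KO3, 2 of the 40 genes and 8 other pathway genes rose. Within the 5 libraries high in Gm10800, limma gave 12 falls and 0 rises among the 40 genes and 13 falls and 0 rises among the others. Of all genes tested there, 3.04% fell. With the neutrophil covariate all 4 counts were 0. Without a filter on low values the rises were 0 in both sets and the other pathway falls 18, since many more genes were tested. Quantile normalization gave 17 and 35 falls and 4 and 8 rises, and the median log2 change of the 40 genes was -0.53. Array weights gave 22 and 39 falls and 3 and 13 rises, and voom 23 and 41 falls and 3 and 11 rises. Among all 12524 genes tested, the rises were 1917 with quantile normalization, 2472 with array weights and 2348 with voom. At a threshold of 0.01 the falls were 13 and 14, and the other pathway rises 0. With the replicate number as a block, 17 of the 40 genes fell and 1 rose, all 17 among the main 21, and Hspa5, Erp29, Ssr3 and Spcs1 lost their call. Deviations of same-numbered libraries from their group means had correlations of -0.213, -0.389, 0.329 and 0.008. Those of unlike-numbered libraries ran from -0.474 to 0.532. With 4 libraries per group, these correlations cannot decide whether same-numbered libraries were paired. None of the 22 genes past the threshold changed direction under any of the 22 alternatives. Among those not past it, Atf6 turned to 0.158, 0.147 and 0.011 without KO1, WT1 or WT4, 0.327 without WT1 and KO1 and 0.48 with the covariate (-0.175 to 0.158 with 1 library left out). Herpud1 turned to 0.323 with quantile normalization, 0.053 with array weights, 0.038 without KO3, 0.027 without WT1 and KO1 and 0.059 with the covariate (-0.269 to 0.038 with 1 library left out). Xbp1 turned to -0.038 without KO4 (-0.038 to 0.344 with 1 library left out) and -0.212 within the 5 libraries, Dnajb11 to 0.077 with array weights and 0.026 with the covariate, and Edem1 to 0.033 without WT1 and KO1 and 0.233 with the covariate. Where not stated, the cause was not tested. Depth limits the genes under 5 FPKM, such as Syvn1, with 16 reads in KO3.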
